A study of Mus musculus with 14 samples.

Results

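The genes described here encode the subunits of the mitochondrial respiratory chain and of ATP synthase, measured in peritoneal B-1a cells of Bmi1 knockout (KO) and wild-type (WT) mice. Members were taken by name: every array gene name that begins like an Nduf, Sdh, Uqcr, Cox4 to Cox8 or Atp5 subunit gene, which gave 85 of the 34821 gene names on the array. Grouped by name, 37 fell under complex I, 4 under complex II, 8 under complex III, 18 under complex IV and 18 under complex V. The names do not always give the complex: Ndufa4 and Ndufa4l2, counted here under complex I, are known as subunits of cytochrome c oxidase. Each gene was represented by its brightest probe. The names also caught 3 genes that are not subunits, namely the pseudogene Atp5c1-ps and Atp5s and Atp5sl, whose current symbols are Dmac2l and Dmac2.

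B-1a cells are a B lymphocyte subset with innate-like functions that lives in the body cavities. Cells were isolated from the peritoneum of mice carrying a Bmi1 knockout and of wild-type mice, with no treatment given in the labels, and each of 14 samples was hybridised to its own one-colour array. There were 7 arrays per genotype from 2 sets of experiments, told apart by how the titles number the samples, with 3 arrays per genotype in set 1 and 4 in set 2. The labels state neither the age of the mice, nor the form of the knockout allele, nor whether separate animals gave the samples of a genotype; p-values therefore measure only how far these samples scatter, and that scatter may be technical.

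Complex I (NADH dehydrogenase) and complex II (succinate dehydrogenase) feed electrons into ubiquinone, complex III passes them to cytochrome c, and complex IV (cytochrome c oxidase) hands them to oxygen. Complexes I, III and IV pump protons across the inner membrane. Complex V, the ATP synthase, lets them flow back through its membrane part to drive the head that makes ATP. Most subunits are encoded in the nucleus, and a few hydrophobic core subunits in the mitochondrial genome. The transcription factors NRF1, GABPA (also called NRF2) and YY1 are known regulators of the nuclear genes.

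Promoter sequence was examined as a feature that the choice by name did not use. RefSeq windows of GRCm38.p6, from 250 bases before to 50 after each start, were matched for 69 of the 85 members and gave 75 windows. The NRF1 core GCGCANGCG, read on either strand, was found in 21 of these windows (28%) against 6.25% of 32851 windows of all genes. The GABPA core CCGGAAG was found in 16 (21.3%) against 8.86%, and the YY1 core AAGATGGCG in 9 (12%) against 1.40%. At least 1 of the 3 motifs was present in 38 member windows (50.7%) against 14.8% of all windows; the base composition of the windows was not compared, and a match of letters is a description, not a binding site. The promoters below are shown because Uqcrh and Atp5h are the members with the smallest p-values that hold a match, and Sdha is a core subunit with 3 matches to the NRF1 core. Each runs 5′ to 3′ from 250 bases before to 30 after the start, with matches in capitals. Uqcrh (chr4:116075041-116075320, minus strand) has a GABPA match 10 bases before the start, Atp5h (chr11:115419890-115420169, minus strand) an NRF1 match at -141 and a GABPA match at -38, and Sdha (chr13:74350211-74350490, minus strand) NRF1 matches of which the first is at -98.
Uqcrh: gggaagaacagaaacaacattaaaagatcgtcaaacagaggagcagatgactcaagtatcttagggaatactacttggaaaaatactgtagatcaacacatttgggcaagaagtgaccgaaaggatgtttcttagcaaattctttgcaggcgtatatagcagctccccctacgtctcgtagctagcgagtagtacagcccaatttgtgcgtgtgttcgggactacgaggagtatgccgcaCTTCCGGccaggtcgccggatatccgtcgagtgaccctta
Atp5h: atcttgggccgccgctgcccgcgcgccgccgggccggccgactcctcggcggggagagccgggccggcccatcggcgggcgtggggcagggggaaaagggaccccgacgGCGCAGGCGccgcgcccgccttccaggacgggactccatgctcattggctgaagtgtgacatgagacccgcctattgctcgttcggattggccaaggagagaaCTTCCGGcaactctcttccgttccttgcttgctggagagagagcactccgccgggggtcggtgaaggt
Sdha: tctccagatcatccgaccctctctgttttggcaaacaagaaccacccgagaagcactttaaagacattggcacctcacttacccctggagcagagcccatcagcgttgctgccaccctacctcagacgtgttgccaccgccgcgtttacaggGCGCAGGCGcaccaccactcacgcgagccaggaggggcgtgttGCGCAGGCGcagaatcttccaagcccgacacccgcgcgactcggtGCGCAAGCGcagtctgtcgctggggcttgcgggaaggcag

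The KO minus WT differences, described below, were also set beside the motifs. The median difference was 0.67 (log2) for the 18 tested members with an NRF1 match and 0.91 for the 46 without one. It was 0.99 for the 16 with a GABPA match and 0.83 for the 48 without, and 1.06 for the 8 with a YY1 match and 0.80 for the 56 without. These medians are given as a description, with no test.

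Array brightness differed and has to be read beside every value. Between 43.5% and 63.3% of probes were well above background on WT arrays, and between 20.6% and 56.6% on KO arrays. The 4 arrays under 40%, called dim here, were all KO: replicate 4 of set 1 and replicates 1, 2 and 3 of set 2. Neither of the Bmi1 probes on chromosome 2 was lower in the samples labelled KO (medians 2.58 in KO and 1.22 in WT at 18607531 to 18607590, -0.15 and -4.73 at 18607987 to 18608046, mm9); the sources used here do not say which part of Bmi1 is deleted, so these probes do not check the labels. Of 9 B-1a markers, 8 were above background on at least 4 KO arrays and 9 on at least 4 WT arrays, Cd79a and Itgam on all 14, and Cd5 on 3 KO and 6 WT arrays. By the KO minus WT difference 6 of the 9 were higher in KO and 3 lower, with a median of 0.82 (log2) and a lowest value of -4.61. At an unadjusted limma p under 0.05, 2 were higher and 1 was lower, and the smallest limma adjusted p was 0.213. The summed signals that follow do not show single markers. The summed signal of the 9 B-1a markers, as a multiple of the array's 75th percentile, ranged from 588 to 16542 in KO (median 1948) and from 572 to 1526 in WT (median 1106). That of the 7 macrophage markers ranged from 8.87 to 663 in KO (median 19.7) and from 10.5 to 171 in WT (median 20.9). That of 6 T and NK cell markers ranged from 1.04 to 17.5 and from 0.998 to 6.73, and that of 6 mast cell and granulocyte markers from 0.899 to 16.9 and from 1.84 to 12.3, with S100a8 at background on every array. The part of other cells in the differences below was not tested. In such bulk samples, fewer cells of a type and less RNA per cell cannot be told apart.

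Respiratory chain transcripts were detected in B-1a cells of both genotypes. Of the 85 members, 59 were well above background on all 7 WT arrays, 23 on all 14 arrays, and each on at least 1. WT arrays detected between 65 and 80 members, and the 3 KO arrays that were not dim between 71 and 81. The dim arrays split: KO set 1 replicate 4 detected 76, while KO set 2 replicates 1, 2 and 3 detected 43, 50 and 39. The members missing there came from every complex. Of the 37 complex I genes, 26 to 36 were detected on WT arrays and 16, 20 and 12 on those 3 arrays. Of the 18 complex V genes the counts were 15 to 18, and 12, 13 and 11. Complex II kept all 4 genes above background except on KO set 2 replicate 2, where 1 was detected. Of the 59 members detected on all WT arrays, 9 were at background on all 3 of these KO arrays: Ndufa7, Ndufa11, Ndufa13, Ndufb5, Ndufb7, Ndufb10, Uqcrq, Atp5o and Atp5sl. The same count over all genes was not made, so the 9 cannot be called particular to this group. Of all probes, only 29.9%, 20.6% and 31.9% were well above background on KO set 2 replicates 1, 2 and 3. The plot of levels by array shows the same arrays holding both the highest and many of the lowest values, the latter lying in a band at background.

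**Figure D1:**
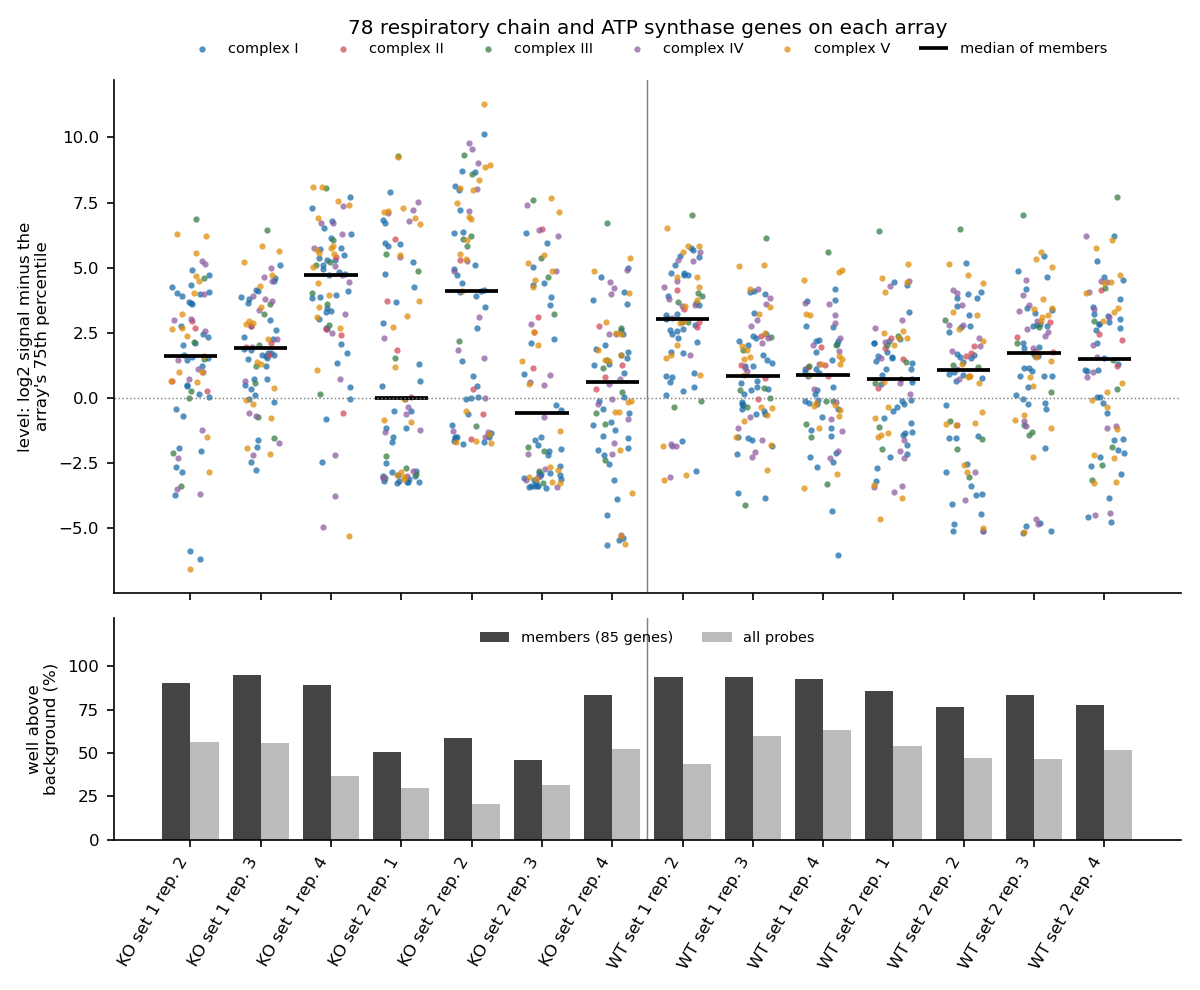
Top: level of each of the 78 tested members on each array (log2 signal minus the array's 75th percentile; one point per gene, coloured by complex; black line, median of members). Bottom: percentage of the 85 members and of all probes well above background. Member medians lie between 0.72 and 3.04 on WT arrays and between -0.59 and 4.71 on KO arrays, and the lowest detection is on KO set 2 replicates 1 to 3.

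The level used below is log2 signal minus the array's 75th percentile, so it compares arrays for one gene and not genes with each other. A gene was tested where 4 or more of the 7 KO arrays, or as many WT arrays, had one of its probes well above background. This held for 78 members, and Ndufa4l2, Ndufa8, Ndufb4, Cox6b2, Cox7b2, Cox8b and Cox8c were not tested. Of the members with levels described below, Cox5b and Ndufb6 passed only through KO arrays, and Ndufa7 and Atp5sl only through WT arrays. In each case that was the genotype where the gene was higher. The median level of the tested members in KO was 1.59, 1.91 and 4.71 in set 1 (replicates 2, 3, 4) and -0.01, 4.12, -0.59 and 0.62 in set 2 (replicates 1 to 4). In WT it was 3.04, 0.82 and 0.86 in set 1 and 0.72, 1.06, 1.73 and 1.5 in set 2, in the same order. The genotypes overlapped: the KO arrays held the highest and the lowest medians, and both high ones, KO set 1 replicate 4 and KO set 2 replicate 2, were dim.

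None of the 78 tested members changed between KO and WT at an adjusted p under 0.05 (limma on all 14 arrays with the set as covariate, Benjamini-Hochberg over 20407 genes). Among all genes 0.0049% were called higher and 0.0196% lower, so few calls could be made anywhere. At an unadjusted p under 0.05, 13 members were higher, against 10% of all genes, and 0 were lower, against 4.22%. The 13 are 16.7% of the tested members. No member had all KO arrays above all WT arrays (0.152% of all genes did) and none had all below (0.098%).

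The median KO minus WT difference of the members was 0.84 on the log2 scale, beside a median of 0.47 over all genes. Differences of both signs occurred: 58 of 78 members (74.4%) were above 0, beside 65.2% of all genes. Only 24 members were above 0 after scaling to probes detected on all arrays and 42 after quantile normalization, since those scalings moved the all-gene median to -0.87 and -0.05. Relative to all genes, the member median was 0.38 higher, or 0.23 after quantile normalization, and 51 of 78 members lay above the all-gene median, or 45 after quantile normalization. The excess over all genes rested on single arrays: without KO set 1 replicate 4 it was -0.09, with 34 of 78 members above the all-gene median. It was 0.12 without KO set 2 replicate 2, 0.17 without WT set 1 replicate 3 and 0.18 without WT set 1 replicate 4. It was 0.57 without KO set 2 replicate 3, 0.58 without KO set 1 replicate 2 and 0.64 without WT set 1 replicate 2. Without the 4 dim arrays, which leaves 3 KO and 7 WT arrays and was chosen after seeing the data, the member median was 0.11 against -0.07, with 47 of 78 above the all-gene median and still none past the threshold.

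**Figure D2:**
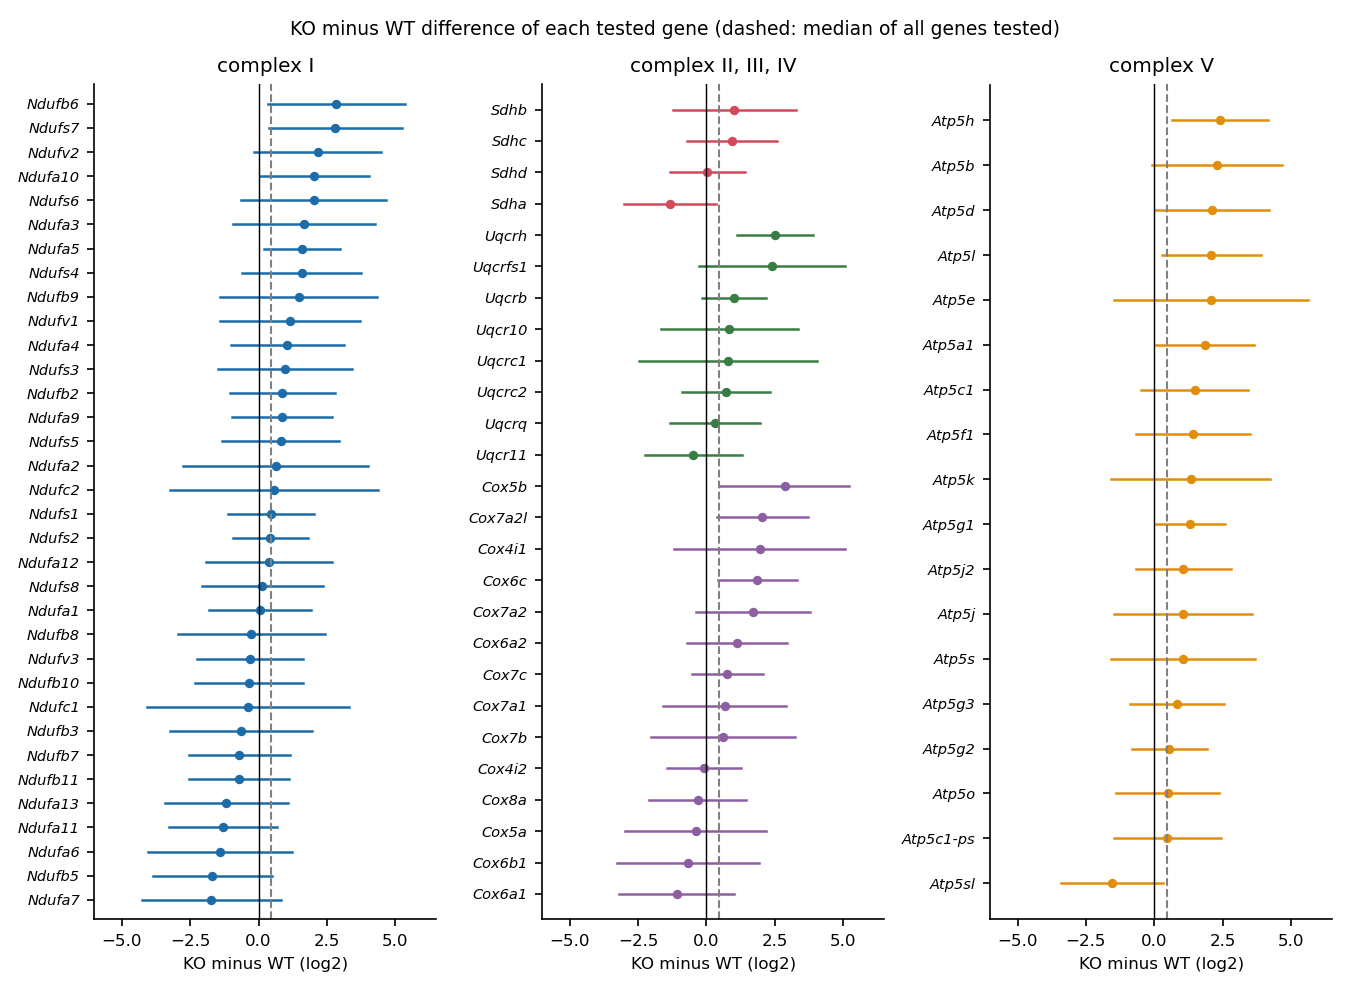
KO minus WT difference of each of the 78 tested members (log2; point, limma estimate over 14 arrays; bar, 95% confidence interval), grouped by complex. The dashed line is the all-gene median of 0.47; most intervals include it, and the lowest values are those of Ndufa7, Ndufb5 and Atp5sl.

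In complex I, the largest group, the 34 tested members had a median difference of 0.52, from -1.73 to 2.85, and 17 lay above the all-gene median. Relative to all genes the median was 0.05, or -0.46 after quantile normalization. Its 7 core subunits, which carry the flavin and iron-sulfur clusters, had a median of 0.96, but -0.37 with scaling to probes detected on all arrays. It was 0.43 without KO set 1 replicate 4, 0.45 without KO set 2 replicate 2 and 0.52 without WT set 2 replicate 1. Ndufs7, the core subunit next to the quinone site, ranged from -3.07 to 4.96 in KO (median 0.02) and from -3.75 to 0.79 in WT (median -2.29). The 3 KO arrays above every WT array were dim, and the other 4 lay within the WT range. The difference was 2.81 (SE 1.15, limma adjusted p = 0.349), and 1.11 (SE 1.04) without the dim arrays.

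Ndufs1, the large iron-sulfur subunit at which electrons cross the peripheral arm, showed no such gap. Its level ran from 0.92 to 6.70 in KO (median 4.14) and from 2.71 to 4.78 in WT (median 3.43). Dim KO arrays gave both the values above and the value below the WT range, and the difference was 0.46 (SE 0.75, limma adjusted p = 0.767). Ndufv1, which binds NADH and the flavin, was above background on 4 arrays of each genotype. It ranged from -5.47 to 4.41 in KO (median -3.01) and from -5.11 to -1.44 in WT (median -3.84), and the highest KO value, on the dim KO set 2 replicate 2, stood alone. Its difference was 1.15 (SE 1.2, limma adjusted p = 0.625), and -0.83 (SE 0.86) without the dim arrays.

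Accessory subunits of complex I surround the core. Ndufb6, a membrane-arm subunit with the largest fitted difference of the complex, was above background on 4 KO and 3 WT arrays and ranged from -5.37 to 4.41 in KO (median -1.51) and from -6.03 to -1.85 in WT (median -4.58). All 4 KO arrays with a measured level exceeded every WT array, but Ndufb6 passed the filter only through the KO arrays. KO and WT values at background depend on each array's floor, so the size of the difference is uncertain. The fitted difference was 2.85 (SE 1.19, limma adjusted p = 0.349), and 1.32 (SE 1.19) without the dim arrays. Ndufa5, a peripheral-arm subunit above background on every array, ranged from 4.07 to 6.79 in KO (median 4.98) and from 1.08 to 5.08 in WT (median 4.09). The 2 KO arrays above every WT array were dim, and the difference was 1.6 (SE 0.66, limma adjusted p = 0.349). Another Ndufa5 probe, also above background on every array, gave 0.40.

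The lowest differences of all members were also accessory subunits of complex I. Ndufa7 was above background on 2 of 7 KO and all 7 WT arrays, with levels from -6.20 to 3.45 in KO (median -2.84) and from -2.48 to 2.56 in WT (median -1.48). Of the 5 KO arrays below every WT array 4 were at background, and 1 dim KO array lay above them all. The difference was -1.73 (SE 1.2, limma adjusted p = 0.446), and -3.93 (SE 1.17, limma adjusted p = 0.757) without the dim arrays. KO values at background depend on each array's floor, so the size of either difference is uncertain. Ndufb5 ranged from -2.64 to 2.74 in KO (median -1.54) and from -2.55 to 3.02 in WT (median 1.42), above background on 4 KO and 7 WT arrays. Those ranges were nearly the same, and the difference was -1.69 (SE 1.03, limma adjusted p = 0.399).

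Complex II is the one enzyme shared by the respiratory chain and the citric acid cycle, and all its subunits are nuclear. Its 4 genes had a median difference of 0.48, beside 0.47 for all genes. Sdha, the flavoprotein that oxidises succinate, ranged from -1.59 to 2.78 in KO (median 2.53) and from 1.74 to 4.14 in WT (median 2.29). The KO arrays fell into those near the WT values and 3 below every WT array, and these 3 were dim. The difference was -1.33 (SE 0.79, limma adjusted p = 0.391) and 0.17 (SE 0.59) without the dim arrays. Sdhb, the iron-sulfur subunit, ranged from 0.27 to 6.47 in KO (median 2.10) and from 0.86 to 4.16 in WT (median 1.93), and its 3 KO values above the WT range came from dim arrays. Its difference was 1.02 (SE 1.06, limma adjusted p = 0.619). Sdhc, a membrane anchor, gave 0.93 (SE 0.77, limma adjusted p = 0.528). Without the dim arrays Sdhb and Sdhc turned below 0, to -0.93 (SE 0.78) and -0.47 (SE 0.64). No complex II gene passed the test.

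Complex III contained the member with the smallest p-value, and 6 of its 8 genes lay above the all-gene median, or 4 after quantile normalization and 3 without KO set 1 replicate 4. Uqcrh is the hinge protein between cytochrome c1 and cytochrome c; its probe lies at 115739571 to 115739630 of chromosome 4 (mm9), and its promoter is shown above. It was above background on every array, from 2.67 to 6.05 in KO (median 4.64) and from 0.71 to 3.93 in WT (median 2.11). On 5 KO arrays it exceeded every WT array, and 4 of these 5 were the dim arrays. The difference was 2.51 (SE 0.66, 95% confidence interval 1.11 to 3.91). The limma adjusted p was 0.257 and ranged from 0.0981 to 0.988 over the alternatives. Without the dim arrays it was 1.17 (SE 0.63, limma adjusted p = 0.982). A second Uqcrh probe, placed on chromosome 2 at 118834335 to 118834394 (mm9), gave 2.61.

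Uqcrfs1, the Rieske iron-sulfur protein, was above background on 6 KO and 4 WT arrays and ranged from -3.39 to 6.23 in KO (median -1.54) and from -4.10 to -0.34 in WT (median -3.05). The difference was 2.40 (SE 1.25, limma adjusted p = 0.358), and 0.06 (SE 0.85) without the dim arrays. Uqcrc1, a core protein, ranged widely in KO, from -3.08 to 9.31 (median 1.49), against -0.88 to 3.63 in WT (median 0.37). Its difference was 0.79 (SE 1.54, limma adjusted p = 0.808), and -0.17 (SE 0.89) without the dim arrays. Uqcrb, the ubiquinone-binding subunit, was above background on every array, from 6.45 to 9.27 in KO and from 5.6 to 7.70 in WT, and differed by 1.02 (SE 0.55, limma adjusted p = 0.363).

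In complex IV, 9 of 14 tested genes lay above the all-gene median (8 after quantile normalization), and the median difference was 0.72. Cox5b, a zinc-binding subunit on the matrix side, had the largest fitted difference of all members. It was above background on 4 KO and 3 WT arrays and ranged from -5.26 to 4.86 in KO (median -0.59) and from -4.83 to -1.86 in WT (median -3.61). All 4 KO arrays with a measured level, those of set 1 and replicate 2 of set 2, exceeded every WT array. Cox5b passed the filter only through these arrays, so this gives no separate support for a difference. The other 3 KO arrays and all 4 WT arrays of set 2 were at background, where values follow each array's floor, so the size of the difference is uncertain. The fitted difference was 2.86 (SE 1.11, limma adjusted p = 0.345) and 0.94 (SE 0.70) without the dim arrays. Cox4i1, the ubiquitous form of subunit 4 that binds ATP, ranged from -3.41 to 9.56 in KO (median 3.39) and from 0.57 to 3.53 in WT (median 1.8), so that KO values surrounded the WT range. Its difference was 1.95 (SE 1.48, limma adjusted p = 0.483).

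Cox6c and Cox7a2l were above background on every array and gave the smallest p-values of the complex. Cox6c ranged from 4.64 to 9.0 in KO (median 6.70) and from 3.65 to 6.21 in WT (median 4.48), a difference of 1.85 (SE 0.68, limma adjusted p = 0.335). Cox7a2l, a factor in the joining of complexes III and IV into supercomplexes, ranged from 3.98 to 9.79 in KO (median 6.45) and from 3.18 to 5.27 in WT (median 4.04), a difference of 2.05 (SE 0.79, limma adjusted p = 0.345). In both genes the 4 KO arrays above every WT array were the dim ones, and without these arrays the differences were 0.38 (SE 0.58) and 0.19 (SE 0.52).

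Tissue-restricted isoforms replace ubiquitous subunits in muscle, lung, testis or under low oxygen, and serve here as members that B cells need not express. Of 8, 5 were not tested: Ndufa4l2 was above background on 1 array of each genotype, Cox6b2 on 3 KO and 1 WT arrays, Cox7b2 on 1 KO array and Cox8b and Cox8c on 1 WT array each. For Cox7b2, Cox8b and Cox8c the brighter genotype gave no bound above 1-fold. Cox7a1, the heart and muscle form of subunit 7a, was above background on all 14 arrays, from -2.33 to 5.76 in KO (median -0.23) and from -1.85 to 1.91 in WT (median -0.16). Its difference was 0.67 (SE 1.06, limma adjusted p = 0.762) and its highest value came from the dim KO set 1 replicate 4. Without the dim arrays the difference was -0.94 (SE 0.73). Cox4i2, the lung form of subunit 4, was above background on 4 KO and 7 WT arrays and differed by -0.08 (SE 0.64, limma adjusted p = 0.955). Cox6a2, the muscle form of subunit 6a, was above background on 4 arrays of each genotype and differed by 1.13 (SE 0.86, limma adjusted p = 0.490).

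Complex V had the highest median difference of the complexes, 1.33, which was 0.86 above that of all genes. Of its 18 genes, 17 lay above the all-gene median; the count was 15 after quantile normalization and 17 after scaling to probes detected on all arrays, although there only 8 were above 0. The excess was smaller without the dim arrays, at 0.16, with 11 of 18 above the all-gene median, and without single arrays: 0.52 without KO set 1 replicate 4, 0.46 without KO set 2 replicate 2 and 0.56 without WT set 1 replicate 4. The 5 subunits of the F1 part, which includes the head where ATP is formed, had a median of 2.07. All 5 were above 0, beside 65.2% of all genes, and stayed so under each scaling (median 0.73 with scaling to probes detected on all arrays, 0.92 with quantile normalization). Without the dim arrays their median was 0.40, and Atp5d fell below 0, to -0.24 (SE 0.87), while the others stayed above 0. The 10 genes of the peripheral stalk and membrane part had a median of 1.19, or -0.15 with scaling to probes detected on all arrays. None of these genes passed the test.

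Atp5b encodes the catalytic beta subunit. It ranged from -2.78 to 5.34 in KO (median 1.3) and from -3.22 to 1.53 in WT (median -0.87). The 3 KO arrays above all WT arrays were dim, and the fourth dim array gave the lowest KO value. The difference was 2.30 (SE 1.13, limma adjusted p = 0.349) and 0.40 (SE 0.72) without the dim arrays. Atp5a1, the alpha subunit that forms the head with beta, was above background on every array, from 0.53 to 5.52 in KO (median 2.67) and from -0.96 to 2.94 in WT (median 1.43). Its difference was 1.86 (SE 0.84, limma adjusted p = 0.349), and 0.79 (SE 0.81) without the dim arrays.

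In the stalk, Atp5h (subunit d) had the smallest p-value of the complex. It ranged from 4.89 to 11.30 in KO (median 7.66) and from 4.47 to 6.07 in WT (median 5.05), with 5 KO arrays above all WT arrays, the dim ones among them. The difference was 2.42 (SE 0.83, limma adjusted p = 0.321) and 0.40 (SE 0.51) without the dim arrays. Atp5l (subunit g, in the membrane) ranged from 1.64 to 6.91 in KO (median 4.28) and from 0.60 to 4.62 in WT (median 2.17), a difference of 2.09 (SE 0.85, limma adjusted p = 0.349). Atp5sl, no subunit but the complex I assembly factor now called Dmac2, was the one gene of the group below 0: from -5.30 to -0.56 in KO (median -2.17) and from -3.35 to 1.64 in WT (median -1.05), a difference of -1.55 (SE 0.88, limma adjusted p = 0.376).

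**Figure D3:**
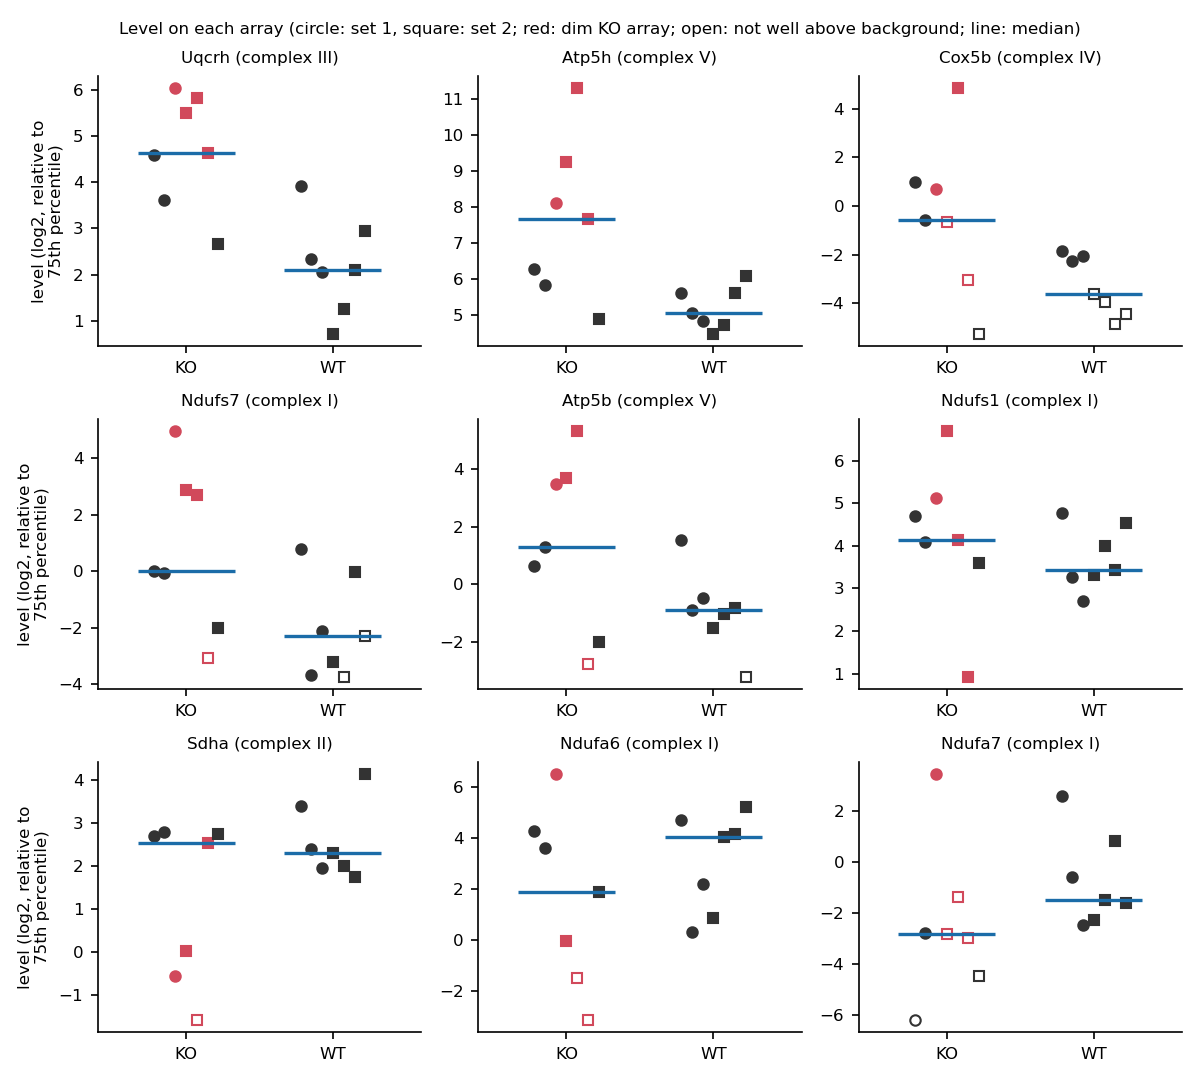
Levels (log2 signal minus the array's 75th percentile) of 9 members on each array, with KO left and WT right (circle, set 1; square, set 2; red, dim KO array; open, not well above background; blue line, median). For Uqcrh and Atp5h the highest values are red points, while for Sdha the 3 lowest KO values are red.

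The 13 members with an unadjusted p under 0.05 were Uqcrh, Atp5a1, Atp5d, Atp5g1, Atp5h, Atp5l, Cox5b, Cox6c, Cox7a2l, Ndufa5, Ndufa10, Ndufb6 and Ndufs7. Cox5b and Ndufb6 among them passed the filter only through the KO arrays. With all arrays the differences of the 13 lay between 1.32 and 2.86 (median 2.09). Without the dim arrays they lay between -0.24 and 1.32 (median 0.61), 12 were above 0, and none had an unadjusted p under 0.05. In that smaller comparison 2 members did, Ndufa7 and Ndufs4, and the smallest limma adjusted p was 0.757. Ndufa7 passed the filter only through the WT arrays. It was at background on KO set 1 replicate 2 and KO set 2 replicate 4, so its value there rests largely on the arrays' floors. The part of array brightness in the differences over all arrays was not tested further.

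The sets of experiments were also compared separately, by fitting each genotype's mean separately per set. Within set 1 no member passed an adjusted p of 0.05 (0.0098% of all genes did), and at an unadjusted p under 0.05 there were 0 members higher (1.23% of all genes) and 0 lower (4.88%). Within set 2 again no member passed (0.0049% of all genes did), with 8 members higher at an unadjusted p under 0.05 (13.1% of all genes) and 2 lower (2.53%). The member median was 1.08 in set 1, where all genes had 0.10, and 0.69 in set 2, where all genes had 0.84. Without KO replicate 4 of set 1 the set 1 median was 0.30, where all genes had -0.00. Within set 2, leaving out KO replicate 4, the only KO array of the set that was not dim, brought 9 members past the threshold. Of these, 8 were higher (Uqcrh, Atp5g1, Atp5h, Atp5l, Cox5b, Cox6c, Cox7a2l and Ndufa10; 10.3% of tested members against 11.7% of all genes) and Ndufa6 was lower (1.23% of all genes). For Cox5b, 6 of the 7 arrays in that comparison were at background, and for Ndufa6 2 of the 3 KO arrays were, so these calls rest largely on the arrays' floors.

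Of 78 members, 48 were above 0 in both sets, 7 below 0 in both, 19 above 0 in set 1 only and 4 in set 2 only. Of all 20407 genes these counts were 8891, 3655, 2063 and 5798. No member's difference depended on the set at an adjusted p under 0.05 (0% of all genes did), and 2 had an unadjusted p under 0.05, against 4.84% of all genes. Ndufa6, an accessory subunit of the peripheral arm, differed by 2.40 (SE 1.47) in set 1 and by -4.29 (SE 1.27) in set 2, a gap of -6.69 (SE 1.95, limma adjusted p = 0.873). It was at background on KO set 2 replicates 2 and 3 and lay at -0.04 on replicate 1, all dim, while WT arrays of that set ran up to 5.25. Ndufb10, a membrane-arm subunit, differed by 2.09 in set 1 and -2.18 in set 2 (limma adjusted p of the gap 0.873), with 3 of the 4 KO arrays of set 2 at background. Cox6a2 gave -0.75 and 2.54 (limma adjusted p of the gap 0.873), but in set 2 it was at background on 3 of 4 WT and 2 of 4 KO arrays, so that value is uncertain.

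**Figure D4:**
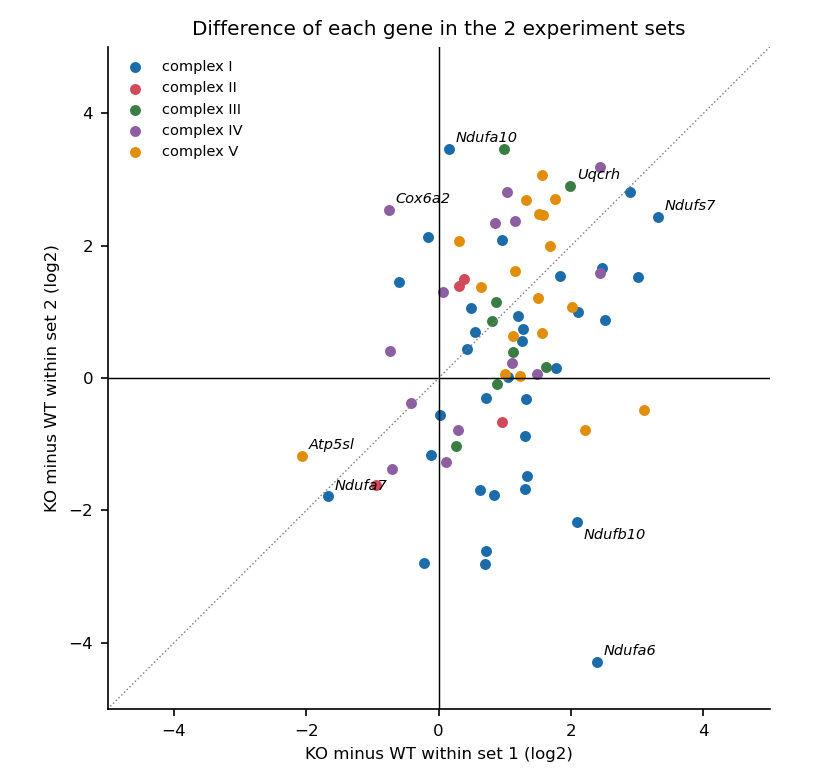
KO minus WT difference (log2) within set 1 (horizontal) and set 2 (vertical) for the 78 tested members, coloured by complex; dotted line, equal differences. Most points lie right of 0, with 48 members above 0 in both sets, and Ndufa6 lies lowest, at 2.40 and -4.29.

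Other genes of the pathway were taken from lists of known components. The 13 mitochondrially encoded subunits were above background on every array. None passed the test, and their median difference was 0.81, with 12 of 13 above 0, beside 65.2% of all genes. Only 3 of 13 were above 0 after quantile normalization (median -0.51), with scaling to probes detected on all arrays, or without the dim arrays (median -0.21). ND3, a complex I subunit, gave 1.97 (SE 0.67, limma adjusted p = 0.321) and COX3, a complex IV subunit, 1.44 (SE 0.66, limma adjusted p = 0.349). Within set 1, 4 of the 13 were above 0 and within set 2, 12, beside 67 and 52 of the 78 nuclear members and 10954 and 14689 of all 20407 genes.

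Electron carriers and subunits outside the name patterns had a median of 1.37 over 8 tested genes, all above 0, beside 65.2% of all genes. Only 4 were above 0 with scaling to probes detected on all arrays and 6 after quantile normalization. The smallest p-values were those of Etfb (2.33, SE 0.95, limma adjusted p = 0.349), which passes electrons from fatty acid oxidation, and Ndufab1 (2.22, SE 1.15, limma adjusted p = 0.355), the acyl carrier subunit of complex I. The 16 tested citric acid cycle enzymes had a median of 0.98, or -0.03 after quantile normalization, with Dlst at 1.99 (SE 0.83) and Idh3g at 2.24 (SE 0.94), both at a limma adjusted p of 0.349. The 12 tested assembly factors of complex I had a median of 0.73, with Timmdc1 at 1.09 (SE 0.57, limma adjusted p = 0.358). Tmem126b, which helps build the membrane arm, was above background on 3 KO and 7 WT arrays, from -5.07 to 0.78 in KO (median -2.37) and from -0.10 to 1.40 in WT (median 0.87). Its difference was -2.82 (SE 0.80, limma adjusted p = 0.261). Tmem126b passed the filter only through the WT arrays, where it was higher. KO values at background depend on each array's floor, so the size of this difference is uncertain. The 22 tested assembly factors of complexes II to V had a median of -0.07. Taco1, an activator of COX1 translation, gave -1.66 (SE 0.78, limma adjusted p = 0.349) and Coa5 gave -2.01 (SE 1.22, limma adjusted p = 0.398).

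Regulators of mitochondrial biogenesis had a median difference of -0.68 over 13 tested genes, but 0.15 with normexp background correction. The factors whose motifs were counted above gave -1.73 for Nrf1 (SE 1.11, limma adjusted p = 0.416), -0.95 for Gabpa (SE 0.66, limma adjusted p = 0.444) and -1.19 for Yy1 (SE 1.02, limma adjusted p = 0.539). Gabpb1, the partner of Gabpa, was above background on 2 KO and 6 WT arrays and gave -2.92 (SE 1.06, limma adjusted p = 0.331). It too passed the filter only through the WT arrays, where it was higher, so the size of that difference is uncertain. Polg, the mitochondrial DNA polymerase, gave 2.22 (SE 0.78, limma adjusted p = 0.325). No gene of these lists passed the threshold.

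Set beside other housekeeping groups, the members took a middle place. The median difference was 0.84 for the 78 members, 0.33 for 67 mitochondrial ribosomal protein genes, 1.23 for 37 proteasome subunit genes and 1.52 for 77 cytoplasmic ribosomal protein genes, and none of these genes passed the test. Relative to all genes they were 0.38, -0.13, 0.76 and 1.05, and after quantile normalization 0.23, -0.15, 0.56 and 0.31. Without the dim arrays the medians were 0.11, -0.07, 0.39 and 0.02, where all genes had -0.07. These groups share the arrays, so their order is a description with no test.

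**Figure D5:**
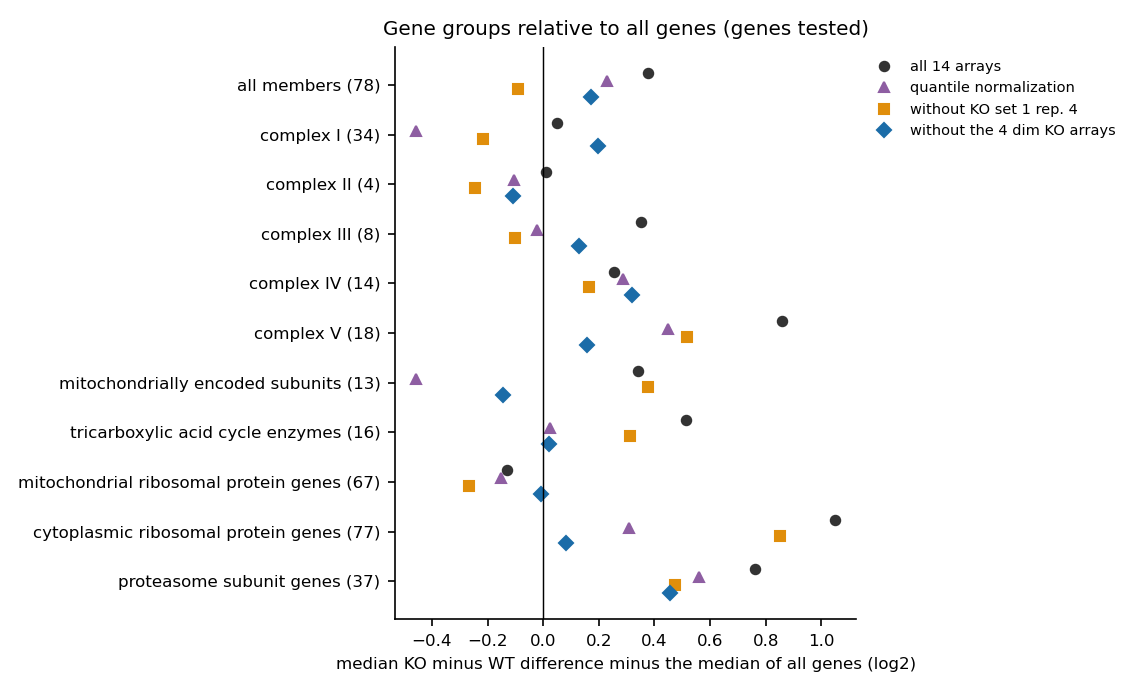
Median KO minus WT difference of gene groups minus that of all genes (log2), with the number of genes tested, on all 14 arrays (circle), after quantile normalization (triangle), without KO set 1 replicate 4 (square) and without the 4 dim KO arrays (diamond). The median of all members is 0.38 above all genes on all arrays and -0.09 without KO set 1 replicate 4.

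Several probes per gene gave a further check. The 85 members had 124 probes, of which 114 passed the filter, and 26 members had more than 1 such probe. In 21 of these all probes had the same sign and in 5 (Atp5j, Ndufb11, Ndufv3, Uqcr10 and Uqcr11) they did not, with no pair of opposite differences at an unadjusted p under 0.05. For 6 members (Atp5j2, Atp5k, Atp5l, Ndufb11, Uqcr11 and Uqcrh) the file places probes on different chromosomes or on an unplaced contig, so near-identical copies may share their signal and these values are less certain. The 6 probes of Atp5l, 5 on chromosome 9 and 1 on chromosome X, gave differences from 0.75 to 2.18. For Atp5k the probe used gave 1.34 and the other probes 3.27 and 3.69.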

How the data were processed

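Total RNA of each sample was labelled with Cy3 and hybridised to its own one-colour Agilent array, per the labels' protocols. Agilent Feature Extraction 10.7.3.1 read the spot intensity, per the file headers, which also give probe positions on mm9. Per the file headers, a score of 0 or 1 marks spots as well above background, saturated or outlying. The deposited table of log2 values (median 3.95 in each column) followed the scanner values with Spearman's rho of at least 0.999 and served as an alternative. Its normalization tool was not given in the sources used here.

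Outlier and control spots were left out and spots of a probe averaged. From the log2 processed intensity the 75th percentile of the array was then subtracted. No spot was saturated. Of 55681 probes, 29679 were well above background on at least 4 of 7 arrays of either genotype, giving 20407 genes, each read by its probe of highest mean. Tests were lmFit and eBayes of limma 3.58.1 in R 4.3.3 (two-sided, set as covariate, Benjamini-Hochberg over all genes, threshold 0.05). Simulated data used to try the model had equal spread on all arrays and changes larger than any member's. Recovery of smaller changes was not checked. Figures used matplotlib 3.10.9. Promoters came from RefSeq (GRCm38.p6), never combined with mm9 positions.

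Members, lists and tests were chosen with earlier results of these data known. Members were named by rule: 11 catalytic, core or main subunits and 8 tissue-restricted isoforms whatever their values, any member past the threshold, the 3 of smallest p in each complex, the 3 largest and 3 lowest differences, the 3 of smallest p for dependence on the set, and the 2 of smallest p in each other list; members named outside the rule were chosen after their values were seen. Alternatives were 2 other scalings, normexp (offset 50), the deposited values, the filter, the mean of probes, no set covariate, slide, a replicate block, array weights, leaving out each array, and leaving out the 4 dim arrays. Samples were not treated as paired in the main model. The deviations of equally numbered samples correlated between -0.23 and 0.18, which cannot settle whether title numbers pair samples. No pair of arrays was a duplicate (highest Spearman's rho 0.927).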

Additional observations from a re-analysis of the deposited data

Results flagged for a closer look

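The level of Ndufv1 on KO set 2 replicate 2 was 4.41, while the other 6 KO arrays lay between -5.47 and -2.47. The gap to the nearest array, as a fraction of the whole KO range, was 0.696, above Dixon's 95% critical value of 0.568 for 7 samples. This array had 20.6% of probes above background. Of 60 groups of values examined in this way this was the 1 that stood out, and chance marks about 1 in 20 groups.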

How the results depend on the processing

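No alternative brought a member past the threshold in the comparison over both sets. Counts within a set, and of members depending on the set, were also made with the 2 other scalings, normexp, the deposited values and no filter. None of these changed a count. The stricter filter, the mean of probes and the other models were fitted over both sets only. The exception was leaving out an array: within set 2 the count ran from 0 to 9, the 9 without KO set 2 replicate 4, which leaves the dim KO arrays. Over the arrays left out one at a time the member median ran from 0.41 to 1.09, and relative to all genes from -0.09 to 0.64. It was -0.49 with scaling to probes detected on all arrays, 0.18 with quantile normalization and with the deposited values, 0.60 with normexp, 0.80 with slide as a block and 0.68 with array weights. With the title number within each set as a replicate block, 0 members passed the threshold and the median stayed at 0.84. The slide block left 6 members higher at an unadjusted p under 0.05 instead of 13, and slide 3 held WT arrays only. Of 739 differences of the 28 named tested members relative to all genes, 44 had another sign than with the main settings; 17 members never changed sign. Signal over background limits all values from the dim arrays.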
